A study of Mus musculus with 6 samples.

Results

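The alpha and beta tubulin isotypes described here are 10 genes taken by name from the mouse family: the alpha genes Tuba1a, Tuba1b, Tuba1c and Tuba4a, and the beta genes Tubb2a, Tubb2b, Tubb3, Tubb4a, Tubb4b and Tubb5. They are 10 of 54232 genes listed in the count files, and all 10 were among the 17299 genes that passed the filter on low counts. RNA was sequenced from wildtype CD1 mouse cortical neurons, CD1 being an outbred stock, in 6 libraries that form 3 groups of 2, numbered repeat 1 and repeat 2. The control libraries are named after PDL, the PA libraries (a peptide amphiphile) after IKVAV, and the PA + PS2 libraries after IKVAV plus PEDOT-S, PEDOT being a conducting polymer. The study asks, by its title, about scaffolds that conduct and carry a bioactive signal, and about the maturation of neurons. The treatment field holds the same entry, the amphiphile, for every library, so the group was taken from the titles. The sources used here give no age, sex, culture time or dose, and do not say whether the repeats were separate cultures or animals. The p-values therefore measure only the spread between these libraries, and how much of it is technical is not known. Sex-linked genes, given below, differed between repeat 1 and repeat 2 in all 3 groups.

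Microtubules are polymers of alpha and beta tubulin heterodimers. Mammals carry several genes for each subunit, and the proteins they encode, called isotypes, are nearly alike in the folded body and differ most in the acidic tail at the carboxyl end. That tail lies on the microtubule surface, carries many glutamates, and is the place where enzymes add glutamate chains or, on most alpha tubulins, remove and restore a final tyrosine. Growing neurons are rich in TUBA1A, TUBB2A, TUBB2B and TUBB3. TUBB5 and TUBB4B are made in many cell types, TUBB4A is abundant in mature neurons and in oligodendrocytes, and TUBA4A is a later, more widely made alpha isotype. Variants in several of these genes disturb cortical development in humans.

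The isotypes differ where the tail is encoded, so the last 60 coding bases before the stop codon are shown for 7 members, 5′ to 3′ on the gene's own strand, with every glutamate codon (gaa or gag) in capitals. They were read from GENCODE M21 transcripts on GRCm38.
Tuba4a: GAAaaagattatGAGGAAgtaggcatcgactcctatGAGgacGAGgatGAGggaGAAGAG
Tubb2a: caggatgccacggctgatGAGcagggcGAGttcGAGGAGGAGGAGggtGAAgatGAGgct
Tubb2b: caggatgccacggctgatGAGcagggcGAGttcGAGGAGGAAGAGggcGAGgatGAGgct
Tubb3: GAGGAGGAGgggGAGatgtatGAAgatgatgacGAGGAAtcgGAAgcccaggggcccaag
Tubb4a: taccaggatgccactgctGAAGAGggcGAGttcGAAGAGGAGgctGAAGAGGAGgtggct
Tubb4b: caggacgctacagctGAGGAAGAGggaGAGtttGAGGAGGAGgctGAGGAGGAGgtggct
Tubb5: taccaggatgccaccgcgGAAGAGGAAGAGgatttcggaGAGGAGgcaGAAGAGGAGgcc
These ends hold 8 to 10 glutamate codons among 20 codons, with the most in Tubb4b. Tuba4a closes with a glutamate codon. Tubb2a and Tubb2b had the same base at 57 of these 60 positions, and Tuba1a and Tuba1b at 59. Positions were counted back from the stop codon without alignment, and Tubb3 has 450 codons against 444 or 445 in the other beta genes. In this count Tubb3 matched the other beta genes least and had the same base as Tubb2a at 24 positions.

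Tuba1b (chr15:98931425-98934565, minus strand), Tuba1a (chr15:98949837-98953703, minus) and Tuba1c (chr15:99029891-99038110, plus) lie close together, and Tuba4a lies at chr1:75214228-75219865 (minus). Tubb2a (chr13:34074274-34078007, minus) and Tubb2b (chr13:34126748-34130466, minus) are neighbours. Tubb3 is at chr8:123411424-123422015 (plus), Tubb4a at chr17:57080066-57087782 (minus), Tubb5 at chr17:35833921-35838306 (minus) and Tubb4b at chr2:25222160-25224702 (minus).

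How far a gene's reads can be told from those of its relatives sets how its count can be read. Each coding sequence was cut into overlapping words of 31 bases, and a word was called own when no other annotated gene's transcript held it. Own words made up 2.34% of the coding words of Tuba1a, 2.79% of Tuba1b and 5.45% of Tuba1c, whose coding sequences were 97.1% to 98.3% identical to each other. Tubb4b (22.6%), Tubb2b (24.5%) and Tubb2a (31.9%) lay between. Tubb2a and Tubb2b were 96.5% identical, and Tubb4b shared 41.0% of its transcript words with a pseudogene copy, Tubb4b-ps1. Tuba4a (92.0%), Tubb3 (95.5%), Tubb5 (96.4%) and Tubb4a (96.9%) could be told apart almost along their whole coding length. The sources used here do not say how reads with several matches were counted, so the split among Tuba1a, Tuba1b and Tuba1c, and between Tubb2a and Tubb2b, is uncertain.

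**Figure D1:**
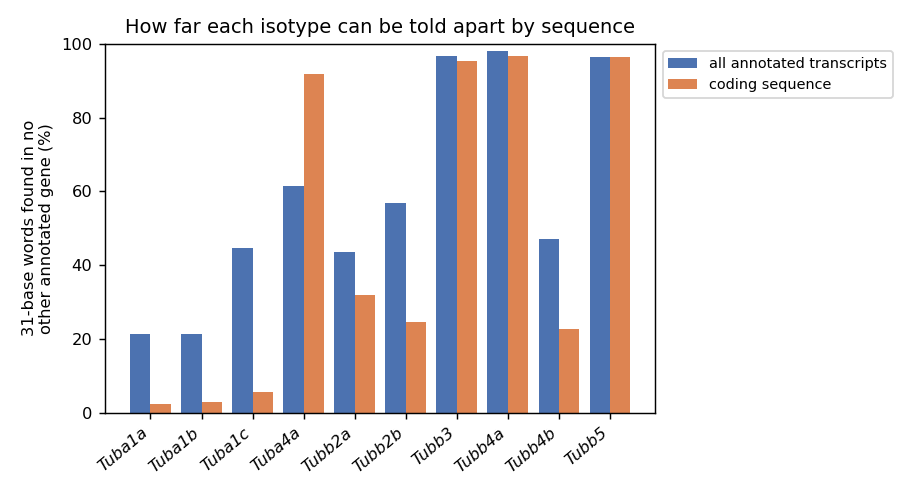
Percent of 31-base words of each isotype (y axis) that no other annotated gene's transcript holds, over all its annotated transcripts (blue) and its coding sequence (orange). The coding sequences of Tuba1a, Tuba1b and Tuba1c have 2.34% to 5.45% own words, whereas Tuba4a, Tubb3, Tubb4a and Tubb5 have over 90%.

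Overlapping genes add a further limit. The gene model Gm49450, on the same strand, covers 26.2% of the exon bases of Tuba1a and 22.7% of those of Tuba1b and is listed at 0 counts in all 6 libraries. Stk16, on the opposite strand, covers 37.3% of the exon bases of Tuba4a and held 1465 to 1855 counts, against 226 to 433 for Tuba4a. The sources used here do not give the strand setting, so reads of Tuba4a and Stk16 in the shared stretch may not be separable.

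The libraries held 30714311 to 33923681 counts, and the 10 genes together took 0.932% to 1.08% of them. Levels are given as CPM, counts per 1e6 counts after TMM scaling. Neuronal markers were high in every library, with Stmn2, a microtubule regulator of growing axons, at 1401 to 1513 CPM and the 8 neuronal markers together at 3585 to 3820 CPM. The marker sums of other cells were far lower, and several moved with the groups or the repeats. Of the single markers tested, S100b, Mag, Mobp and Cx3cr1 were at 0 in at least 1 library. The 8 astrocyte markers summed to 50.5 and 114 CPM in control libraries, 64.8 and 211 with PA and 34.1 and 48.4 with PA + PS2. The 8 cycling cell markers summed to 76.8 and 155, 86.6 and 214, and 38.1 and 39.3 CPM in the same order, and the 7 oligodendrocyte markers to 44.4 and 44.8, 57.6 and 47.6, and 74.2 and 107 CPM. The 5 oligodendrocyte precursor markers summed to 32.4 and 79.7, 23.6 and 120.3, and 7.77 and 6.56 CPM, the 7 progenitor markers to 276 and 449, 323 and 559.5, and 212 and 238 CPM, and the 8 fibroblast and mural markers to 134 and 153, 169.8 and 96.3, and 98.6 and 39.4 CPM. All these sums but that of oligodendrocytes were lowest in a PA + PS2 library. In bulk RNA, fewer cells of a type and less RNA per cell cannot be told apart.

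Tuba1a was the most abundant isotype per length. Divided by merged exon length, it stood at 1415 ± 123 CPM per kb (mean and SD over 6 libraries). Tubb2b followed at 971 ± 54.7 and Tubb3 at 928 ± 59.4 CPM per kb. Those 2 were in the same order in 6 of 6 libraries, although their ranges over the libraries overlapped. Tubb5 (655 ± 33.3), Tubb2a (459 ± 33.4) and Tubb4a (140 ± 12.3 CPM per kb, from 117 to 151) came next without overlap between neighbours. Tubb4b (49.5 ± 4.43), Tuba1c (39.6 ± 23.3) and Tuba1b (22.4 ± 1.70) formed a low tier in which the range of Tuba1c (16.3 to 65.1 CPM per kb) contained those of both others. Tuba4a was lowest at 3.19 ± 0.668 CPM per kb. This order treats all exon bases as equally countable. Over all annotated transcripts, 380 of 1773 words of Tuba1a were own, 689 of 1580 of Tubb2a and 1807 of 1867 of Tubb3. If reads with several matches were dropped, genes with few own words would be set too low, and the order could differ.

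**Figure D2:**
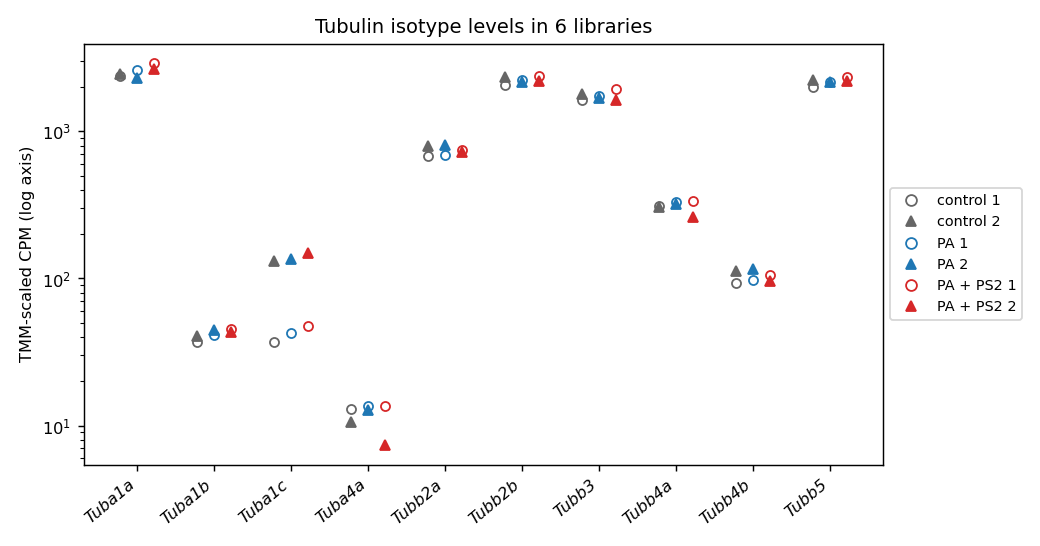
TMM-scaled CPM (y axis, log scale) of the 10 isotypes in each library. Open circles are repeat 1, filled triangles repeat 2, and grey, blue and red are control, PA and PA + PS2. For Tuba1c the repeat 2 libraries (131 to 149 CPM) lie well above the repeat 1 libraries (37.3 to 47.4 CPM) in all 3 groups.

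Tuba1a, the main alpha tubulin of postmitotic neurons, had 2394 and 2445 CPM in control libraries, 2600.1 and 2291 with PA and 2911 and 2662 with PA + PS2 (repeat 1 then repeat 2, as in all lists of values here). Both PA + PS2 libraries lay above the 4 others, and the PA libraries lay on either side of the control. Its mean was 2786 ± 176 CPM (SD, n = 2) with PA + PS2 and 2419 ± 36.6 in the control. The log2 difference of 0.20 (SE 0.0881) did not pass edgeR's quasi-likelihood test (adjusted p = 0.728). With the repeat number in the model the difference was 0.20 (SE 0.0733, 95% interval 0.04 to 0.36, adjusted p = 0.281). Against PA it was 0.19 (SE 0.0733, 95% interval 0.03 to 0.35, adjusted p = 0.299) in that model, and PA against control gave 0.01 (interval -0.15 to 0.17, adjusted p = 1.00). With 1 library left out, the difference from control ran from 0.11 (without control 1) to 0.29 (without control 2), and that from PA from 0.11 (without PA 2) to 0.28 (without PA 1).

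Tuba1b, an alpha tubulin of proliferating and many other cells, had 36.8 and 40.9 CPM in control libraries, 41.1 and 44.7 with PA and 45.6 and 43.0 with PA + PS2. Both scaffold groups lay above the control and overlapped each other. The log2 differences from control were 0.14 (SE 0.0956) for PA and 0.19 (SE 0.0955) for PA + PS2 with the repeat number in the model, and neither passed (adjusted p = 1.00 and 0.484). With 1 library left out they ran from 0.068 (without control 1) to 0.22 (without control 2), and from 0.074 (without PA + PS2 1) to 0.30 (without PA + PS2 2). Tuba4a, the alpha isotype whose last codon is not a tyrosine codon, had 12.9 and 10.5 CPM in control libraries, 13.6 and 12.9 with PA and 13.6 and 7.34 with PA + PS2. The lowest value was in a single PA + PS2 library, and the groups overlapped. PA + PS2 against PA gave a log2 difference of -0.38 (SE 0.189, adjusted p = 0.469) with the repeat number in the model.

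Tubb3, the beta isotype used as a marker of neurons, had 1632 and 1782 CPM in control libraries, 1727 and 1684 with PA and 1929 and 1644 with PA + PS2. The groups overlapped in all 3 comparisons. With PA + PS2 its log2 ratio to control was 0.24 within repeat 1 and -0.12 within repeat 2. Tubb2b, an isotype of migrating and growing cortical neurons, had 2051 and 2341 CPM in control libraries, 2235 and 2150.1 with PA and 2394 and 2195 with PA + PS2. It overlapped in the same way, with within-repeat log2 ratios of 0.22 and -0.09. Tubb2a, its near copy, had 675 and 798, 689 and 803, and 742 and 722 CPM. The 2 lower control and PA values both belonged to repeat 1. The ratio of Tubb2b to Tubb2a was between 2.68 and 3.24 in the 6 libraries.

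Tubb5, the widely made beta isotype, had 1994 and 2244 CPM in control libraries, 2152 and 2159.7 with PA and 2326 and 2191 with PA + PS2. The PA + PS2 libraries lay above both PA libraries, and the control libraries lay on either side of PA. Tubb4b, common in cilia and in many tissues, had 93.4 and 113, 97.5 and 115, and 105 and 96.0 CPM, with overlap in all comparisons. Tubb4a, the isotype of mature neurons and myelinating cells, had 310.1 and 307 CPM in control libraries, 329 and 323 with PA and 337 and 260.1 with PA + PS2. The PA libraries lay above the control and the PA + PS2 libraries were the highest and the lowest of the 6. The Tubb4a log2 difference for PA + PS2 was -0.06 (SE 0.0867, adjusted p = 0.892) against control, beside the higher oligodendrocyte and lower oligodendrocyte precursor marker sums given above, whose part in its level was not tested.

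Across the 3 comparisons, none of the 10 members passed. edgeR's quasi-likelihood test at an adjusted p under 0.05 called 0 members and 0.0% of the 17299 genes for PA against control, 0 and 0.0% for PA + PS2 against control, and 0 and 0.0% for PA + PS2 against PA. Unadjusted p was under 0.05 for 103, 1178 and 1332 genes, and for 0, 1 and 0 members. With the repeat number in the model the shares called were 0.0%, 0.699% (121 genes, 21 higher and 100 lower) and 1.52% (263 genes, 35 higher and 228 lower), with 0 members called each time and unadjusted p under 0.05 for 0, 2 and 1 members. DESeq2 called 125 genes for PA + PS2 against control and 183 against PA, with 0 members. The lowest adjusted p among members was 0.179, for Tuba1c with PA + PS2 against control (log2 0.26, SE 0.0776). That model called single members only when a library was left out: Tuba1c without PA 1 (adjusted p = 0.0322), and, lower with PA + PS2 than with PA, Tuba4a (adjusted p = 0.0337) and Tubb4a (adjusted p = 0.0289) without PA + PS2 1. The median log2 difference of the 10 was 0.03, 0.06 and 0.06 in the 3 comparisons, and that of all genes 0.01, 0.01 and 0.00. The comparisons share groups, so their values are not independent.

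**Figure D3:**
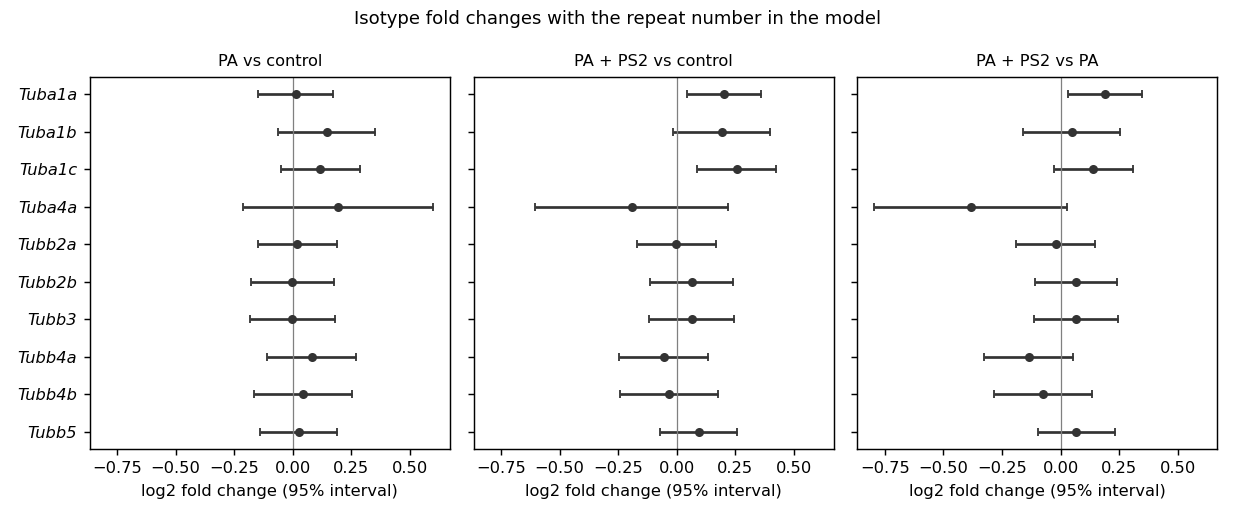
Log2 fold changes of the 10 isotypes (x axis) with 95% intervals from edgeR with the repeat number in the model, in the 3 comparisons. Most intervals include 0; those of Tuba1a and Tuba1c with PA + PS2 against control, and of Tuba1a against PA, do not, and no adjusted p was under 0.05.

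Taken gene by gene and without adjustment, the intervals give the range of change compatible with the spread between these libraries. They do not bound an effect across cultures or animals. With the repeat number in the model, the 95% intervals of the 9 members other than Tuba4a stayed within a log2 change of -0.33 to 0.43 in all 3 comparisons, and Tuba4a, the lowest member, ran from -0.80 to 0.60. Without the repeat number, the interval of Tuba1c ran from -2.98 to 3.42 for PA + PS2 against control, its repeats being far apart. That of Tuba4a then ran from -0.98 to 0.30 for PA + PS2 against PA.

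Libraries that did not overlap between groups were few. For PA against control, 2 members (Tuba1b and Tubb4a) had both libraries above the other group and 0 below, where 12.1% and 9.69% of all tested genes did so. For PA + PS2 against control, 2 (Tuba1a and Tuba1b) were above and 0 below, against 16.6% and 17.1% of all genes. For PA + PS2 against PA, 2 (Tuba1a and Tubb5) were above and 0 below, against 16.7% and 18.4%. A count of 2 in 10 is near these background shares. An exact two-sided permutation test of 2 against 2 libraries cannot go below p = 0.333.

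The beta mix varied little between libraries, and the alpha mix differed by repeat through Tuba1c. By CPM, alpha genes made up 26.9% and 25.7% of the 10-gene sum in control libraries, 27.2% and 25.6% with PA and 27.8% and 28.7% with PA + PS2. Both PA + PS2 values lay above the other 4. By CPM per kb the alpha share was 29.9% to 33.5%, again with both PA + PS2 libraries highest. The level of the alpha share depends on how reads with several matches were counted, since 97.7% of the Tuba1a coding words were shared with other genes. Within the alpha sum Tuba1a held 92.2% to 96.5%, and Tuba1c reached 1.58% in repeat 1 and 5.48% in repeat 2. Within the beta sum Tubb2b held 29.7% to 30.9%, Tubb5 29.5% to 30.8%, Tubb3 23.1% to 24.6%, Tubb2a 9.47% to 11.1%, Tubb4a 3.66% to 4.59% and Tubb4b 1.34% to 1.59%. Among shares within a family, the largest difference between group means was 0.712 percentage points, for Tubb5 with PA + PS2 (30.3% ± 0.799, SD, n = 2) against control (29.6% ± 0.0486), where the pooled SD between replicates was 0.566. It became 0.147 points without PA + PS2 2 and 1.28 without PA + PS2 1. As a share of all 10 genes, Tuba1a was 1.84 points higher with PA + PS2 than in the control and 1.88 points higher than with PA. The repeats differed widely in this share, which was 25.9% and 23.9% in control, 26.2% and 23.6% with PA and 26.8% and 26.7% with PA + PS2. Within repeat 1 and repeat 2 the difference was 0.913 and 2.76 points from control, and 0.635 and 3.13 points from PA.

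**Figure D4:**
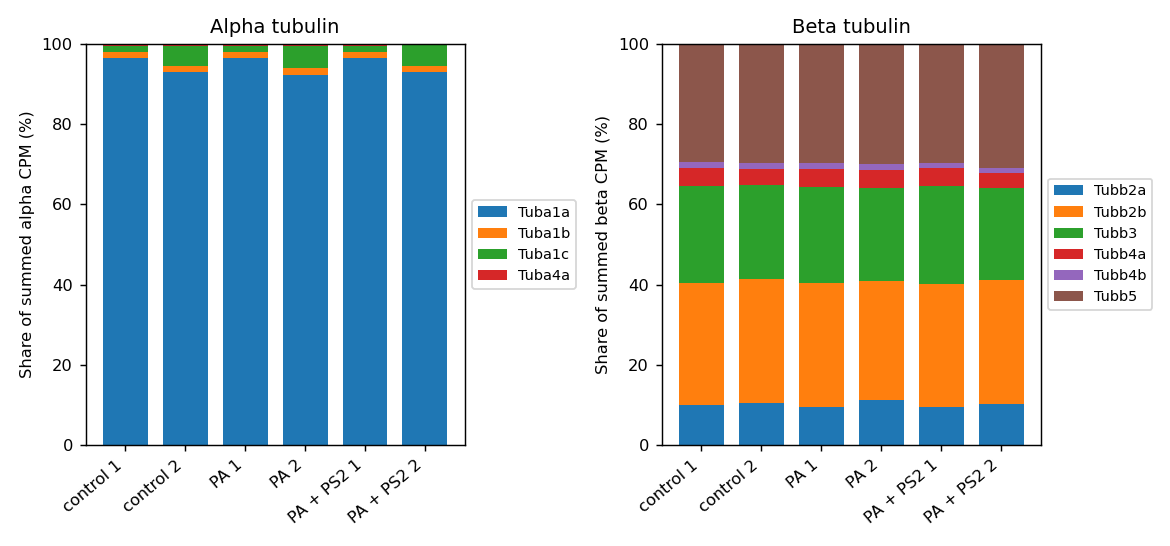
Share of each isotype in the summed CPM of its family (y axis, percent) in each library, alpha on the left and beta on the right. Tuba1a fills 92.2% to 96.5% of the alpha sum, and no beta isotype exceeds 30.9%; the Tuba1c band is wider in the repeat 2 libraries.

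Tuba1c, an alpha isotype found in many cell types, stood apart by repeat. In repeat 1 it had 37.3, 42.7 and 47.4 CPM (control, PA, PA + PS2), and in repeat 2 it had 131, 136 and 149 CPM. Every repeat 2 library was above every repeat 1 library, and within each repeat the order was control, PA, PA + PS2. In repeat 1 every member rose in that order, and the sum of the 10 was 9237, 9927 and 10851 CPM. In repeat 2 that sum was 10213, 9719 and 9969 CPM. The Tuba1c ratios of repeat 2 to repeat 1 were 3.52, 3.19 and 3.14 in the 3 groups. A test of the repeat number, chosen after the values had been seen, gave a log2 difference of 1.71 (SE 0.0647, adjusted p = 2.19e-08 in edgeR's quasi-likelihood test). That test called 846 of 17299 genes (4.89%, 335 higher and 511 lower in repeat 2) and 1 of the 10 members. Without control 1 or control 2 it called 225 and 221 genes, and without PA 1 or PA 2 it called 1489 and 1459, with Tuba1c called each time. Tuba4a was also called without either PA library, and Tubb2a and Tubb4b without either PA + PS2 library. Among 7629 genes with a mean of at least 20 CPM, only Slc7a11 was raised in repeat 2 by as large a log2 difference as Tuba1c. Genes lower in repeat 2 were not part of that comparison. The other members had log2 differences of -0.41 (Tuba4a, adjusted p = 0.168) to 0.14 (Tubb2a, adjusted p = 0.261).

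The difference was not shared by the neighbouring genes. Within 500 kb of the start of Tuba1c there were 26 genes other than members at 1 CPM or more. Of these, 0 were higher and 4 were lower in repeat 2, with log2 differences of -0.89 to 0.42 over the 26. Among all 17299 tested genes, 335 were higher and 511 lower. Tuba1a and Tuba1b, in the same cluster, had log2 differences of -0.09 (adjusted p = 0.452) and 0.06 (adjusted p = 0.735). The repeats also differed in sex-linked genes. Ddx3y, on the Y chromosome, ranged over 16.9 to 18.5 CPM in repeat 1 libraries and 36.2 to 39.5 CPM in repeat 2 libraries. Xist, which is expressed from the inactive X, ranged over 987 to 1140.1 and 644 to 723 CPM. The astrocyte marker sum was 2.25, 3.25 and 1.42 times as high in repeat 2 in control, PA and PA + PS2, and the cycling marker sum 2.02, 2.47 and 1.03 times, beside the 3.52, 3.19 and 3.14 times of Tuba1c. The part of these differences in the Tuba1c value was not tested.

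Several sequence relatives of the alpha cluster were also higher in repeat 2. Of 14 listed genes whose transcripts share at least 100 words with Tuba1a, Tuba1b or Tuba1c (these 3 included), 13 were tested. Of the 13, 6 were higher and 0 lower in repeat 2, where 335 of all 17299 genes were higher and 511 lower. Tuba1c is 1 of the 6 and relatives may share reads, so these calls are not independent. The 6 were Tuba1c, Slc7a11 and the processed pseudogenes Gm3756, Gm14150, Gm5620 and Gm7172. The 9 pseudogenes together had 36.3, 55.3 and 45.8 CPM in repeat 1 (control, PA, PA + PS2) and 83.2, 77.1 and 76.8 CPM in repeat 2. Gm3756 had the largest change among them, from 6.01, 13.9 and 9.11 CPM to 24.1, 25.1 and 25.9 CPM (log2 1.43, SE 0.204, adjusted p = 0.0113).

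Slc7a11, the cystine and glutamate exchanger, had 15.7, 17.0 and 19.4 CPM in repeat 1 and 59.0, 55.5 and 58.6 CPM in repeat 2 (log2 1.74, SE 0.0857, adjusted p = 2.88e-07). The ratios were 3.75, 3.27 and 3.02, close to those of Tuba1c in the same groups. Its transcript Slc7a11-201, 9223 bases long, holds 277 positions between bases 3418 and 4173 at which a 31-base word matches Tuba1 transcripts on the opposite strand. The shorter coding transcript, Slc7a11-205, has no such match. Whether the shared letters have a part in the Slc7a11, pseudogene or Tuba1c values was not tested, because the files hold 1 count per gene and no read positions.

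**Figure D5:**
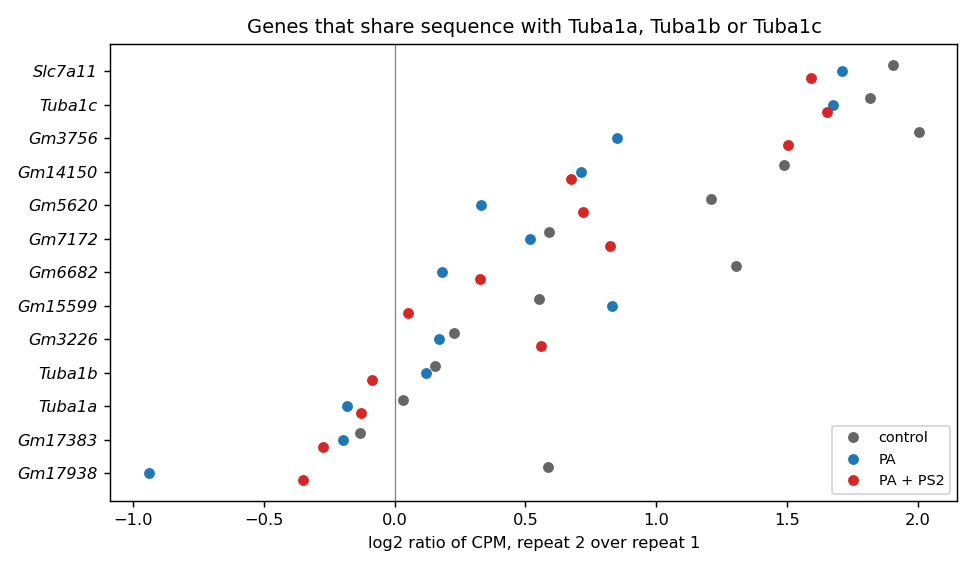
Log2 ratio of CPM in repeat 2 over repeat 1 (x axis) for the 13 tested genes that share at least 100 words of 31 bases with Tuba1a, Tuba1b or Tuba1c, 1 point for each group. Tuba1c and Slc7a11 lie at 1.59 to 1.91 in all 3 groups, and Tuba1a and Tuba1b near 0.

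Other tubulins were scarce. Tubb6, a beta isotype of dividing and non-neuronal cells, had 8.01 and 12.1 CPM in control libraries, 9.29 and 7.54 with PA and 5.54 and 5.58 with PA + PS2. Both PA + PS2 libraries lay below the 4 others, and the cycling marker sums given above were lowest there too. Of all tested genes, 17.1% had both PA + PS2 libraries below both control libraries. Among those 4 others, PA 2 had the lowest Tubb6 but the highest cycling sum (214 CPM) and the lowest fibroblast and mural sum (96.3 CPM). The part of these cells in the Tubb6 level was not tested. For PA + PS2 against control, the Tubb6 log2 difference of -0.85 (SE 0.219) did not pass with the repeat number in the model (adjusted p = 0.114). Tuba3a, Tubal3 and Tubb1 were listed at 0 counts in all 6 libraries, and Tuba3b and Tuba8 held at most 1 and 5 counts in a library. The gamma tubulins that nucleate microtubules, Tubg1 and Tubg2, were at 29.1 to 34.4 and 10.5 to 14.6 CPM and were called in none of the comparisons.

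No gene of the tubulin machinery passed. Of 21 genes for tubulin folding (the CCT chaperonin, prefoldin and the tubulin cofactors), 0 were called in any of the 3 comparisons, with or without the repeat number, and their summed level was 3005 to 3205 CPM. Cct2, a chaperonin subunit, was at 343 to 357 CPM. The 12 genes of the pathway that degrades tubulin mRNA when free tubulin is abundant summed to 1013 to 1063 CPM and also had 0 called. Cnot1, the scaffold of the deadenylase complex, was at 186 to 211 CPM. Of 25 genes for tail enzymes, 24 were matched and 20 tested, with 0 called and sums of 1480.1 to 1602 CPM. Atat1, which acetylates alpha tubulin, had 301 and 307, 331 and 312, and 342 and 339.6 CPM, with log2 0.16 (SE 0.0655, adjusted p = 0.341) for PA + PS2 against control with the repeat number in the model. Both PA + PS2 libraries of Atat1 lay above the 4 others. Among all tested genes, 16.6% had both PA + PS2 libraries above both control libraries, and 16.7% above both PA libraries.

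Of 29 microtubule-associated proteins 0 were called, and their sum was 23008 to 25397 CPM. Map1b, a protein of growing axons, was at 5037 to 6485 CPM, lowest in control 1 and PA 1. Mapt, the axonal tau protein, was at 2958 to 3259 CPM. Of 9 severing enzymes and their partners 8 were tested and 0 called, with Spast, a severing ATPase, at 228 to 268 CPM. Of 8 cycling cell markers, 0 were called for PA + PS2 against control without the repeat number (lowest adjusted p = 0.417) and 4 were called lower with it, where 100 of all 17299 genes were lower. In that model Bub1b, a mitotic checkpoint kinase, had a log2 change of -2.23 (SE 0.252, adjusted p = 0.00461).

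The genes whose levels followed Tuba1a and Tubb2b most closely over the 6 libraries were taken from 4729 genes with a mean of at least 50 CPM, by Pearson's r of log2 CPM. For Tuba1a they were Phf20l1 (r = 0.993), Kctd15 (r = 0.992) and Dbn1 (r = 0.990), and for Tubb2b Sipa1l3 (r = 0.995), Ulk2 (r = 0.990) and Prkx (r = 0.967). These are the highest of many values over 6 points that share libraries, groups and repeats, and they are given as a description only.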

How the data were processed

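Poly(A) or total RNA (the labels name both) from 6 libraries was counted per Ensembl gene. The deposited values are raw counts, whole numbers with 1 library per file, per the file headers and values. Per the submitters' processing notes, the tools were STAR 2.7.5, HTSeq 2.0.2, cutadapt 4.2 and DESeq2 1.14.1 on mm10; roles and settings are not given. The sources used here do not give how reads with several matches were treated, and this could change the split among near-identical tubulins.

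The test was that of edgeR 4.0.16 (R 4.3.3), with counts scaled by TMM (filterByExpr, robust quasi-likelihood F test over all 6 libraries, Benjamini-Hochberg adjustment over 17299 genes, threshold 0.05). Its code was run on simulated counts whose set changes were larger than those of the members in the fits over all libraries. That run cannot tell how often changes as small as those of the members would be found. Standard errors were derived from the fold change and F. DESeq2 1.42.0, limma 3.58.1 (voom), other scalings and filters, only the 2 groups compared, the repeat block and leaving out each library were alternatives. The repeat number as a block lowered the biological coefficient of variation from 16.7% to 9.57%. The main fit used the group alone. Repeat differences correlated at 0.44, 0.43 and 0.26 between the 3 pairs of groups, so the fits with the repeat block treated libraries as paired by number. This pairing comes from the data, since the labels give no shared litter or day. No replicate pair of a group was a duplicate (chi-square of 14.6 to 21.1 for each degree of freedom); pairs across groups were not compared.

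Gene symbols, coordinates and transcripts came from GENCODE M21 (GRCm38, also called mm10). The members, the gene lists and the rules were chosen with earlier results of these data known. Named genes were all 10 members, other tubulins with a level, up to 4 called genes of each list or else its 2 most abundant, and the 3 genes most alike the top alpha and beta isotypes. Depth limits Tuba4a most (226 to 433 counts). Some items that these rules select are not reported here.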

Additional observations from a re-analysis of the deposited data

How the results depend on the processing

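Of 600 refits of the 30 member fold changes, 526 kept their direction and side of the threshold, 71 changed sign and 3 passed. Outside leave-one-out fits the sign changed for Tubb2b and Tubb3, PA against control, with library totals alone (0.0029 and 0.0037) and limma-voom (0.00046 and 7.4e-05). Genes called rose from 0 with no filter (2, 425 and 501 in the 3 comparisons), with the repeat block (121 for PA + PS2 against control, 263 against PA) and with DESeq2 (125 and 183); members called stayed at 0 in these. For the repeat test, no filter called 1486 genes and 2 members (Tuba1c and Tuba4a).

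Leaving out a library, with or without the block, called 0 to 35, 0 to 942 and 0 to 1021 genes, and 0 to 1 members for PA + PS2 against control and 0 to 2 against PA. The members called were Tuba1c without PA 1 (adjusted p = 0.0322, with the block) and, without PA + PS2 1, Tuba4a (log2 -0.75, adjusted p = 0.0337) and Tubb4a (log2 -0.31, adjusted p = 0.0289), lower than in PA. The repeat test then called 221 to 1489 genes and 1 to 3 members, Tuba1c always (log2 1.66 to 1.75), Tuba4a without either PA library, and Tubb2a and Tubb4b without either PA + PS2 library.

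Leave-one-out ranges of log2 fold changes that changed sign were, for PA against control, Tuba1a -0.082 to 0.099, Tuba1c -0.997 to 1.26, Tuba4a -0.079 to 0.43, Tubb2a -0.11 to 0.14, Tubb2b -0.14 to 0.13, Tubb3 -0.13 to 0.12, Tubb4a -0.014 to 0.17, Tubb4b -0.096 to 0.18 and Tubb5 -0.079 to 0.13. For PA + PS2 against control they were Tuba1c -0.83 to 1.39, Tuba4a -0.68 to 0.22, Tubb2a -0.14 to 0.13, Tubb2b -0.077 to 0.20, Tubb3 -0.082 to 0.20, Tubb4a -0.25 to 0.13, Tubb4b -0.24 to 0.16 and Tubb5 -0.012 to 0.20. For PA + PS2 against PA they were Tuba1b -0.058 to 0.16, Tuba1c -0.92 to 1.21, Tuba4a -0.84 to 0.042, Tubb2a -0.15 to 0.11, Tubb2b -0.028 to 0.16, Tubb3 -0.070 to 0.20, Tubb4a -0.32 to 0.047, Tubb4b -0.27 to 0.11 and Tubb5 -0.015 to 0.15. The 4 that kept their sign (Tuba1a with PA + PS2 in both comparisons, and Tuba1b against control in both) ran between 0.068 and 0.30. Without the block such fits set a lone repeat against a mean of both. With a library left out, the largest share difference within a family was 1.71 to 2.57 percentage points in size. The ends of that range were for Tuba1a (1.71 for PA + PS2 and -2.57 for PA, against control). Such shares also set a lone repeat against a mean of both. The Tubb5 difference for PA + PS2 against control was 0.147 to 1.28 points. A count of 31-base words over the genome was not run, as no genome was used here; the version over annotated transcripts, and the test of the repeat number with its alternatives, were chosen after seeing the data.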
